A study of Mus musculus with 71 samples.

Results

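The regions described here are 1023 intervals of accessible chromatin, 0.657% of the 155738 intervals measured. They were selected on their day 11 values. Each read higher in MUT than in WT cells in both p2 and pMN, and not correspondingly higher in p0-p1. All are progenitor populations of the ventral spinal cord, and p0-p1 is the more dorsal. Below, ventral as against p0-p1 is short for p2 and pMN. The levels are group means of log2(normalised reads + 5). The rule asked for a MUT minus WT difference of at least 0.8 on that log2 scale in p2 and in pMN, and of less than 0.4 in p0-p1. The day 11 values of these regions are therefore given as a description. Tests were made only on libraries from days 5, 7 and 9, which the rule did not use.

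The study used CaTS-ATAC, which measures chromatin accessibility in cells that are fixed and transposed, then stained with antibodies to intracellular markers and sorted. The transposase Tn5 inserts sequencing adapters where DNA is accessible, so the number of reads in an interval reflects how open it is. The cells were mouse embryonic stem cells differentiated in culture towards neural progenitors. All groups first received bFGF, then the GSK3β inhibitor CHIR99021, then retinoic acid with Smoothened agonist, and from day 5 the agonist alone. The 38 WT and 33 MUT libraries fell into 26 groups, 7 of 2 libraries and 19 of 3. WT groups were p0-p1, p2 and pMN on days 5, 7 and 9 from the fraction labelled NFIAn, p2 and pMN on day 9 from the fraction labelled NFIAp, and the 3 populations on day 11 from NFIAp. MUT groups were the same 3 populations on days 5, 7, 9 and 11, all NFIAn. NFIAn and NFIAp are read here as cells sorted without and with the protein NFIA. Which gene is mutated in MUT is not named in the labels, which also do not say how many clones carry the mutation. They also leave unsaid whether replicates came from separate cultures; a p-value here measures only how far these libraries spread. On day 11 MUT was NFIAn and WT was NFIAp, so genotype and NFIA fraction cannot be told apart in the values that chose the regions.

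Neural progenitors of the ventral spinal cord are patterned into domains by the morphogen Sonic hedgehog. The pMN domain, marked by the transcription factor Olig2, gives rise to motor neurons and later to oligodendrocyte precursors, while p0, p1 and p2 give rise to classes of ventral interneurons. The domains also share a change with time: early progenitors make neurons, later ones make glia. NFIA is a transcription factor that appears in progenitors at about this switch and is known for its part in astrocyte formation. Intervals that lose or keep accessibility over this period are commonly gene regulatory elements, but the deposited table identifies them by number alone, without positions or gene names. The regions are therefore called by their interval numbers, and their sequences, neighbouring genes and the marker genes of the sorted populations were not analysed here.

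Reads over all intervals ranged from 20034731 to 31315134 per library, with a median of 24375871. The members were of ordinary depth. Their mean value had a median of 31.8 normalised reads, with quartiles of 18.2 and 65.8, and the median over all intervals was also 31.8, with quartiles of 15.0 and 92.6. At the members' median level, counting error alone was 17.7% of a value. Some libraries stood apart. A run of 5 consecutive intervals held 0 to 1 reads in 32 of the MUT libraries and 148 to 519 reads in 37 of the WT libraries. The library labelled MUT D7 pMN replicate 3 held 213 reads there and the library labelled WT D7 pMN replicate 3 held 0, so both went against their genotype label. Replicate 2 of the group labelled WT D9 p2 NFIAp lay near pMN. On a scale that put the mean of WT day 9 p2 NFIAn at 0 and of pMN NFIAn at 1, over the 1000 intervals that differed most between them, it lay at 0.9. The other WT day 9 p2 NFIAp libraries lay at 0.54 and 0.43. WT D7 p2 replicate 2 was also left out, on earlier results of these data, in a repeat without these 4 libraries. None of the 4 took part in the selection.

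On day 11, the members' median MUT minus WT difference was 0.95 in p2, with a range from 0.80 to 1.74, and 1.02 in pMN, with a range from 0.80 to 2.30. Over all intervals the medians were 0.04 and 0.05. In p0-p1 the members' median was 0.24, with a range from −1.16 to 0.40, and 833 of the 1023 read above 0. The selection thus kept intervals whose p0-p1 difference was mostly positive but small. Every MUT library lay above every WT library for 958 members in p2 and 994 in pMN, against 20.2% and 21.4% of all intervals. In p0-p1 this held for 128 members, 12.5%, against 17.1% of all intervals. These counts follow from the selection and nothing is read from them.

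The members' share of all normalised reads shows the same selection from the side of single libraries. In WT on day 11 they took 0.269%, 0.216% and 0.181% of the signal in the p0-p1 libraries, but 0.136%, 0.144% and 0.129% in the p2 libraries and 0.107%, 0.112% and 0.113% in the pMN libraries. In MUT they took 0.289%, 0.266% and 0.236% in p0-p1. The MUT p2 libraries gave 0.352%, 0.324% and 0.302%, and the MUT pMN libraries 0.315%, 0.286% and 0.278%. WT p2 and pMN were the libraries that stood low, below each WT p0-p1 library and each MUT library. In bulk libraries of sorted cells, fewer cells with an open interval and less opening per cell cannot be told apart.

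The threshold fell in a dense range of values. There were 285 members within 0.05 above it and 420 intervals within 0.05 below it that met the other conditions. Just inside, Interval_4580 had a smaller difference of 0.80 and Interval_92777 of 0.801. Just outside, Interval_30072 and Interval_24960 each had 0.799. In p2 on day 11, Interval_4580 read 76.3, 80.4 and 75.8 in WT against 128, 139 and 149.5 in MUT, and the excluded Interval_24960 read 73.7, 58.5 and 41.2 against 123, 116 and 73.4.

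**Figure D1:**
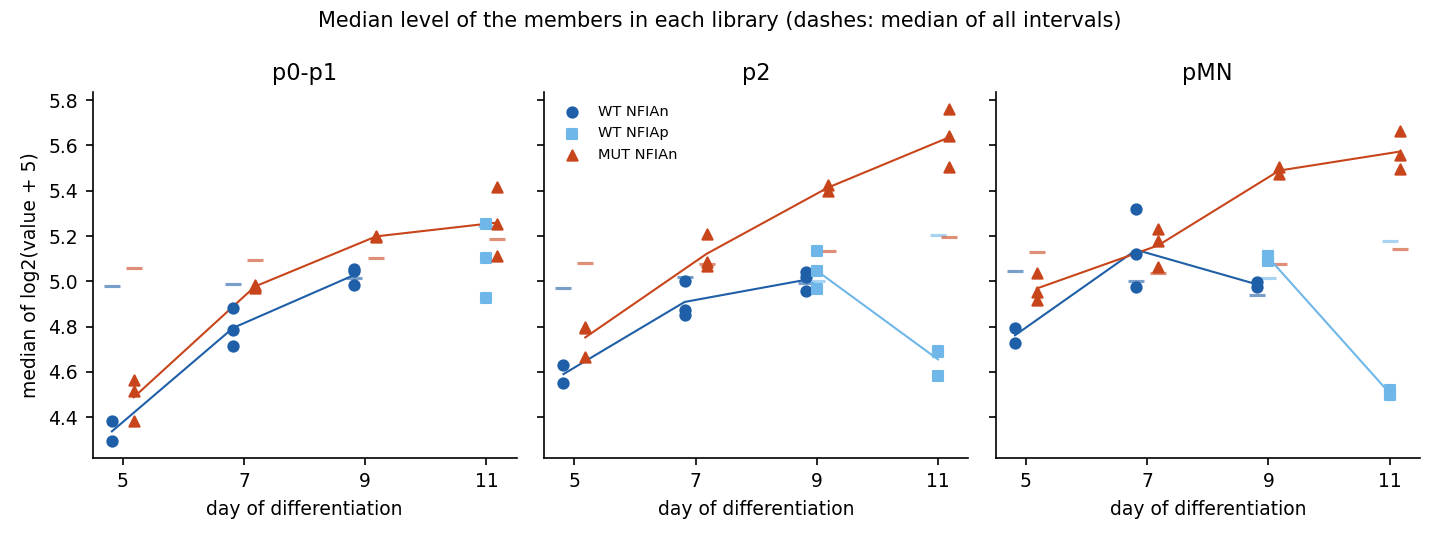
Median of log2(value + 5) over the 1023 members in each library, by day and population. Points are libraries, lines join the means of the library medians, and dashes are means of the medians over all intervals. The WT p2 and pMN libraries of day 11 lie lowest of all WT day 9 and 11 libraries, and the MUT libraries of days 9 and 11 lie highest in those populations.

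The members with the largest smaller-of-p2-and-pMN difference on day 11 show what was selected. Interval_127607 read 95.3, 134 and 105 normalised reads in the WT pMN libraries of day 11 and 629.8, 599 and 469 in MUT. In p2 it read 81.5, 60.5 and 52.7 in WT and 228, 208 and 217 in MUT, while in p0-p1 the genotypes overlapped, at 118, 66.7 and 71.7 in WT and 89.0, 120.0 and 114 in MUT. This interval was open early in both genotypes: on day 5 pMN read 312 and 318 in WT and 371, 439.9 and 424 in MUT. From day 5 to day 9 the difference over p2 and pMN was −0.85 ± 0.22 on the log2 scale in WT (standard error, limma adjusted p = 0.00102) and −0.63 ± 0.21 in MUT (limma adjusted p = 0.00954), both smaller than the log2 limit of 1 used for a call.

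Interval_3914 behaved in another way. It was low through day 7, at 12.4 to 40.9 normalised reads in every library of days 5 and 7. On day 11 it read 147, 143 and 161 in MUT pMN and 127, 89.5 and 114 in MUT p0-p1. WT p0-p1 also reached 98.5, 63.2 and 96.2, whereas WT pMN read 22.6, 28.0 and 35.3. WT p2 and pMN were thus the day 11 groups that read near the day 5 and day 7 level.

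Interval_11666 was the most accessible of these 6, with a mean of 459.8 normalised reads over all libraries. WT pMN read 524 and 551 on day 9 in the NFIAn fraction, 373, 497 and 438 in the NFIAp fraction, and 93.4, 108 and 138 on day 11. MUT pMN read 567 and 474 on day 9 and 348, 313 and 339 on day 11. Both genotypes were lower on day 11, WT by more, and on day 9 the genotypes did not differ by the test (pMN −0.05 ± 0.26, limma adjusted p = 0.945). Interval_80456 was more open by day 7. In WT pMN it read 55.9 and 54.3 on day 5, 252, 195 and 203 on day 7, and 157 and 187 in NFIAn on day 9. In MUT pMN it read 184, 207 and 177 on day 7 and 231 and 250 on day 9. Its increase from day 5 to day 9 in p2 and pMN was 1.50 ± 0.16 in WT and 2.28 ± 0.15 in MUT (limma adjusted p = 1.99e-12 and 1.01e-20). On day 11 it read 26.4, 35.3 and 32.5 in WT pMN and 98.1, 94.0 and 99.8 in MUT pMN.

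**Figure D2:**
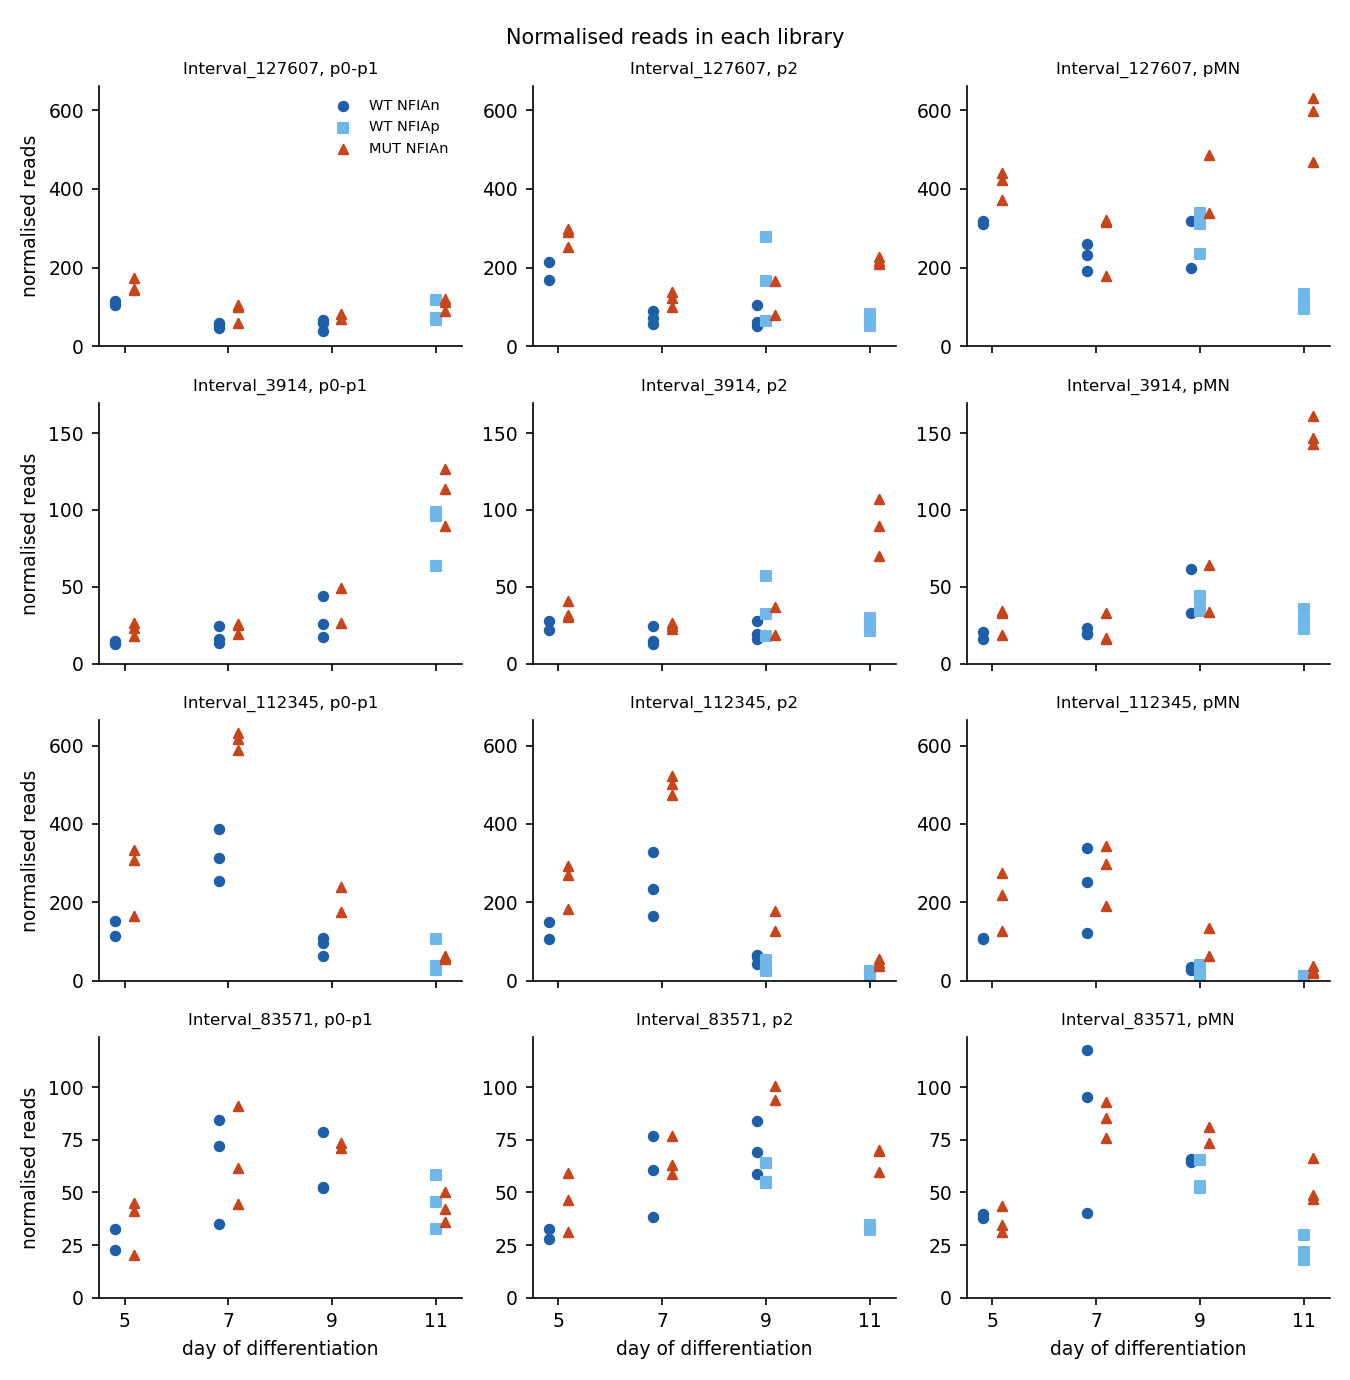
Normalised reads per library of 4 members by day, with populations in columns. Interval_127607 and Interval_3914 have the largest smaller-of-p2-and-pMN day 11 differences. Interval_112345 has the largest day 9 difference averaged over p2 and pMN among called members of at least median level. Interval_83571 lies nearest the medians of the members of at least that level. In WT p2 and pMN of day 11 each of the 4 reads below MUT in every library.

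The first comparison that the selection did not use was MUT against WT on day 9, with both genotypes in the NFIAn fraction. The members were already shifted towards MUT. Their median difference was 0.36 in p2 and 0.47 in pMN on the log2 scale, against 0.07 and 0.07 over all intervals, and 896 and 891 of the 1023 members read above 0. Over all intervals 57.2% and 56.0% read above 0. Library medians of the members were 5.04, 5.02 and 4.96 in WT p2 and 5.43 and 5.40 in MUT p2, and in pMN 4.98 and 5.00 in WT and 5.47 and 5.50 in MUT. The genotypes did not overlap, and their gap was several times the pooled replicate standard deviation of a library median, 0.08. The library medians over all intervals did not overlap either, with a smaller gap. In p2 those were 4.96, 5.02 and 5.00 in WT and 5.11 and 5.16 in MUT, and in pMN 4.93 and 4.95 in WT and 5.07 and 5.09 in MUT. Separation of the genotypes was thus not particular to the members.

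Few single members passed the test on day 9. The test was limma's, at an adjusted p under 0.05 over 155734 intervals and a log2 difference of at least 1. It called 19 members higher in p2, against 0.571% of all intervals tested, and 59 in pMN, against 1.22%, which are 1.86% and 5.77% of the members. No member was lower in either, against 0.254% and 0.489% of all intervals. Without the adjustment, 254 and 355 members had p under 0.05, 24.8% and 34.7%, against 15.2% and 18.0% of all intervals. The counts rested on single libraries. In p2 the 19 became 7 without MUT D9 p2 replicate 1, 2 without MUT replicate 2, 5 without WT D9 p2 NFIAn replicate 1 and 11 without WT replicate 2. In pMN the 59 became 23 without MUT D9 pMN replicate 1, 6 without MUT replicate 2, 3 without WT D9 pMN NFIAn replicate 1 and 107 without WT replicate 2. The medians held: over these repeats the p2 median ranged from 0.341 to 0.398 and the pMN median from 0.405 to 0.477.

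Among called members of at least median mean level, Interval_112345 had the largest day 9 difference averaged over p2 and pMN. In p2 it read 42.8, 64.8 and 60.6 in WT NFIAn and 126 and 178 in MUT, a difference of 1.36 ± 0.36 (limma adjusted p = 0.0277). In pMN it read 26.5 and 35.9 in WT and 63.1 and 133 in MUT, a difference of 1.44 ± 0.40 (limma adjusted p = 0.0265). The day 5 and p0-p1 libraries also read higher in MUT. On day 5 the MUT minus WT difference over p2 and pMN was 0.88 ± 0.26 (limma adjusted p = 0.0342), under the log2 limit of 1. In p0-p1 on day 9 it read 62.0, 108 and 95.8 in WT and 176 and 238 in MUT, 1.20 ± 0.36, which missed the threshold (limma adjusted p = 0.0724). By day 11 pMN had low values in both genotypes, at 9.44, 11.4 and 8.36 in WT pMN and 20.7, 24.5 and 37.3 in MUT pMN. Interval_94140 read 28.6 and 79.8 in WT pMN NFIAn on day 9 and 116 and 223 in MUT (1.64 ± 0.42, limma adjusted p = 0.0162). It had been more open before: on day 7 pMN read 216, 219 and 323 in WT and 268, 314 and 267 in MUT. Interval_105074 was higher in MUT pMN by 1.42 ± 0.43 (limma adjusted p = 0.0462), with 11.6 and 51.9 in WT and 52.3 and 113 in MUT, so its lower MUT library was close to the upper WT library.

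**Figure D3:**
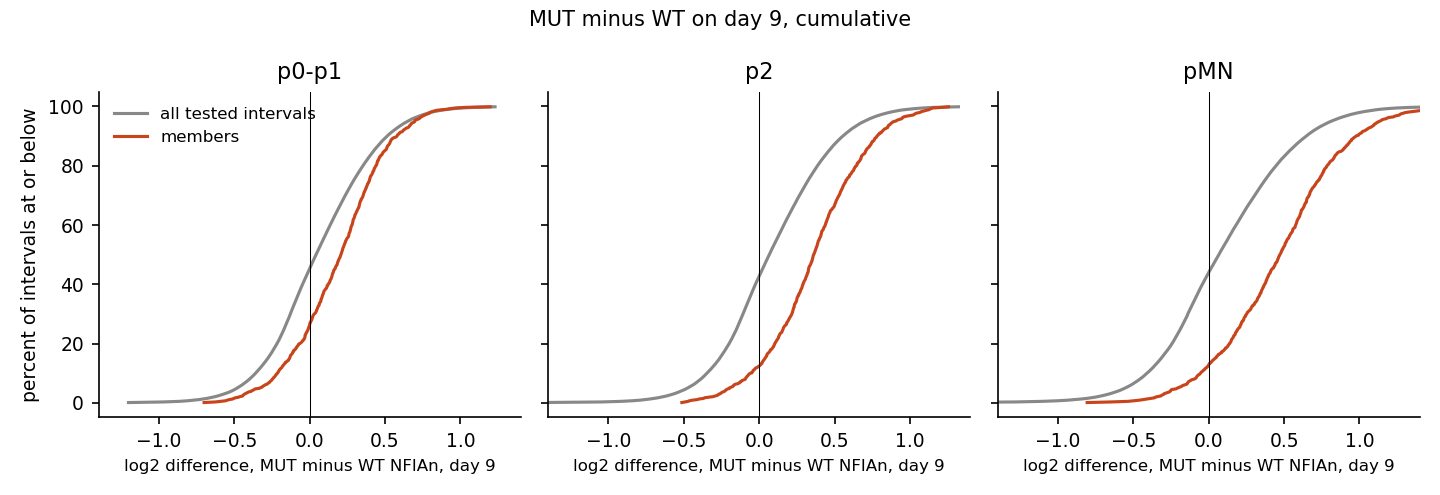
Cumulative percent of intervals by the log2 difference MUT minus WT NFIAn on day 9, in p0-p1, p2 and pMN. The members' curves lie to the right of those of all tested intervals, with medians of 0.21, 0.36 and 0.47 against 0.04, 0.07 and 0.07.

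The shift was also present in p0-p1, the population the rule kept out. The members' median day 9 difference there was 0.21, against 0.04 over all intervals, and 752 members, 73.5%, read above 0, against 54.7% of all intervals. Library medians were 5.05, 5.05 and 4.98 in WT and 5.20 and 5.20 in MUT. The test called 1 member higher, against 0.272% of all intervals, and no member lower, against 0.151%. The single call was lost without MUT D9 p0-p1 replicate 1 or replicate 2 and became 2 members without WT D9 p0-p1 NFIAn replicate 2. The members' median of the difference between the ventral populations and p0-p1 in the MUT minus WT difference was 0.23, with 774 members, 75.7%, above 0. Over all intervals the median was 0.02 and 53.9% were above 0. That difference was called for no interval in either direction, 0% of all intervals, by limma, edgeR or DESeq2. By limma 62 members, 6.06%, had an unadjusted p under 0.05, against 2.15% of all intervals. A larger MUT minus WT difference in p2 and pMN than in p0-p1 on day 9 was therefore not shown for any single member.

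On day 9 the WT cells of p2 and pMN were also collected with NFIA. The MUT libraries compared are the same ones as above, so these values share them. Against WT NFIAp, the members' median MUT minus WT difference was 0.29 in p2 and 0.37 in pMN, against −0.01 and 0.01 over all intervals. In p2, 150 members were called higher, against 6.89% of all intervals, and 3 lower, against 2.07%. In pMN, 69 were called higher, against 2.09%, and none lower, against 2.02%. The 150 became 86 without MUT D9 p2 replicate 2. The 3 called lower became 8 without MUT D9 p2 replicate 1, 6 without WT D9 p2 NFIAp replicate 2 and none without MUT D9 p2 replicate 2. With only the groups compared in the fit the 150 became 33, and with a pseudocount of 20 they became 76 and the 69 of pMN became 24. In pMN the 69 became 19 without MUT D9 pMN replicate 2 and 39 without WT D9 pMN NFIAp replicate 1.

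Within WT on day 9, the members did not move one way with NFIA. Their median NFIAp minus NFIAn difference was 0.06 in p2 and 0.08 in pMN, against 0.02 over all intervals in both. In p2, 11 members, 1.08%, were called higher, against 1.14% of all intervals, and 32, 3.13%, lower, against 2.61%. Both shares were near those of all intervals. With a pseudocount of 20 the 11 became 1, with edgeR 26, and with only the groups compared the 32 became 10. The 32 became 19 without WT D9 p2 NFIAn replicate 3, and the 11 became 19 without NFIAn replicate 1 and 20 without NFIAp replicate 2, the library near pMN. In pMN no member was called higher, against 0.0122% of all intervals, or lower, against 0%, by limma, and edgeR and DESeq2 called none either; without WT D9 pMN NFIAn replicate 1, limma called 1. By limma 104 members of pMN, 10.2%, had an unadjusted p under 0.05, against 9.77% of all intervals. Thus on day 9 the WT cells with and without NFIA had similar medians over the members. The low WT level of day 11 is in part set by the selection. Day 11 had no WT NFIAn libraries, so the fractions could not be compared there.

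A few members did differ between the fractions of WT p2, in shares near those of all intervals. They are given as single cases and not as a trait of the members. Interval_154628 read 118, 149 and 159 in NFIAn and 21.6, 41.5 and 37.5 in NFIAp, lower in every NFIAp library, by −1.97 ± 0.31 (limma adjusted p = 7.79e-06). MUT p2 read 165 and 228. On day 11 WT p2 read 39.0, 54.3 and 33.8 and MUT p2 96.5, 108 and 56.0. Interval_82710 fell in the same way, from 185, 223 and 227 in NFIAn to 61.1, 109.9 and 71.2 in NFIAp (−1.37 ± 0.22, limma adjusted p = 5.43e-06), and Interval_46986 by −1.25 ± 0.26 (limma adjusted p = 0.000717). In pMN none of the 3 passed the test, and Interval_82710 read 73.0 and 123 in NFIAn and 83.3, 123 and 88.7 in NFIAp. Opposite cases were Interval_40911, at 15.8, 14.3 and 11.8 in p2 NFIAn and 40.4, 79.8 and 22.5 in NFIAp (1.32 ± 0.33, limma adjusted p = 0.00419), and Interval_96381, at 6.52, 9.88 and 9.26 against 25.4, 49.8 and 29.0 (1.51 ± 0.31, limma adjusted p = 0.000409). In both, the highest NFIAp value was that of replicate 2, the library near pMN. The other p2 NFIAp libraries also lay part of the way towards pMN, at 0.54 and 0.43. Each of these named cases differed in p2 NFIAp towards its pMN NFIAn values. Those were 27.5 and 69.8 in Interval_154628, 51.9 and 85.8 in Interval_46986, 94.2 and 71.8 in Interval_40911, and 31.8 and 95.7 in Interval_96381. A difference between the fractions and a shift towards pMN cannot be told apart here.

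Before day 9 the genotypes were closer. On day 5 the members' median MUT minus WT difference over p2 and pMN was 0.15, against 0.04 over all intervals. The test called 1 member higher, against 0.151% of all intervals, and none lower, against 0.0308%. Leaving out single day 5 libraries gave 1 to 5 members, with 5 without MUT D5 pMN replicate 1. On day 7 the median was 0.12, against 0.02, or 0.073 without WT D7 pMN replicate 2, and no member was called higher, against 0.00963% of all intervals, or lower, against 0.00642%. The day 7 count was also 0 by DESeq2 and 1 by edgeR, it was 1 without MUT D7 pMN replicate 3 or MUT D7 p2 replicate 3, and 157 members, 15.3%, had an unadjusted limma p under 0.05 against 11.7% of all intervals. Without the 4 libraries named above, 4 members were called higher and 1 lower on day 7, and the median was 0.147. Library medians in pMN on day 7 were 5.12, 4.98 and 5.32 in WT and 5.18, 5.23 and 5.06 in MUT, where the libraries labelled replicate 3 had the highest WT and the lowest MUT value.

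The growth of the difference from day 5 to day 9 was tested directly; this comparison was chosen with the data in view. Over p2 and pMN the members' MUT minus WT difference was larger on day 9 than on day 5 by a median of 0.25, against 0.00 over all intervals. It was positive for 770 members, 75.3%, against 50.5% of all intervals. The test called 6 members higher, against 0.0995% of all intervals, and none lower, against 0.19%. The 6 became 2 without MUT D5 pMN replicate 2, 2 without WT D9 pMN NFIAn replicate 1 and 25 without WT D9 pMN NFIAn replicate 2. One of the 6, Interval_106770, read 323 and 318 in WT p2 and 340.5, 284 and 324 in MUT p2 on day 5. On day 9 it read 163, 188 and 202 in WT NFIAn and 407 and 413 in MUT. Over p2 and pMN the day 9 minus day 5 difference was −0.67 ± 0.16 in WT (limma adjusted p = 0.000286) and 0.35 ± 0.15 in MUT (limma adjusted p = 0.0448), both smaller than the log2 limit of 1. Interval_45185 rose over p2 and pMN in both genotypes, by 1.12 ± 0.19 in WT and 2.23 ± 0.19 in MUT (limma adjusted p = 1.35e-06 and 1.28e-16). Its pMN libraries went from 36.0 and 33.8 to 34.9 and 62.8 in WT and from 36.5, 41.1 and 42.1 to 119 and 174 in MUT.

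The members also changed with time, and they did not share 1 course. In WT from day 5 to day 9 NFIAn, over p2 and pMN, 244 members rose, against 11% of all intervals, and 96 fell, against 12.5%, with a median of 0.31 against 0.02 over all intervals. In MUT 350 rose, against 12.8%, and 66 fell, against 12.2%, with a median of 0.54 against 0.00. These are 23.9% and 9.38% of the members in WT and 34.2% and 6.45% in MUT. Interval_109524 rose most in WT among members of at least median mean level. Its pMN libraries read 3.79 and 2.05 on day 5 and 121 and 83.8 on day 9, and the increase over p2 and pMN was 3.95 ± 0.28 in WT and 4.63 ± 0.26 in MUT (limma adjusted p = 8.37e-20 and 4.52e-24). Interval_2286 rose by 3.85 ± 0.16 in WT (limma adjusted p = 5.26e-30) and already read 685, 442 and 501 in WT p2 on day 7, from 30.2 and 31.5 on day 5. On day 11 it read 98.0, 116 and 104 in WT p2 and 217, 212 and 223 in MUT p2.

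Other members had lost most of their day 5 level by day 9. Interval_134689 read 542 and 502 in WT pMN and 529.6, 580.4 and 640.5 in MUT pMN on day 5, and 73.0 and 56.8 in WT and 84.8 and 116 in MUT on day 9. It changed by −3.26 ± 0.17 in WT and −2.80 ± 0.16 in MUT over p2 and pMN (limma adjusted p = 4.36e-26 and 5.07e-24). Interval_59950 changed by −3.38 ± 0.23 in WT and −2.71 ± 0.22 in MUT (limma adjusted p = 2.66e-20 and 4.28e-17). On day 9 it was called higher in MUT pMN, with 2.12 and 1.99 in WT NFIAn and 14.8 and 14.0 in MUT (1.46 ± 0.34, limma adjusted p = 0.00741). These WT values lie under the added 5. WT pMN NFIAp read 7.75, 9.51 and 7.14, and the MUT difference from it was 0.57 ± 0.31 (limma adjusted p = 0.281). In p2 against NFIAn it was 0.70 ± 0.31 (limma adjusted p = 0.251), so neither passed the test. By day 11 MUT pMN read 26.2, 38.2 and 43.8 against 7.55, 15.6 and 6.50 in WT.

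From day 9 to day 11 the members can only be described, since day 11 chose them. In WT, against day 9 NFIAn, the median difference was −0.43 for p2, −0.59 for pMN and 0.03 for p0-p1. Against day 9 NFIAp it was −0.44 for p2 and −0.69 for pMN, and the day 11 level was lower than that of either day 9 fraction. In MUT the medians were 0.19 in p2, 0.02 in pMN and −0.02 in p0-p1. Over p2 and pMN, 523 members were lower by more than 0.5 in WT, against 22.3% of all intervals, and 110 were higher by more than 0.5, against 27.1%. In MUT 247 were lower by more than 0.5, against 18.7%, and 326 were higher, against 20.6%. The members were of several kinds. In 243, 23.8% against 13.9% of all intervals, both genotypes were lower on day 11. In 268, 26.2% against 8.39%, WT was lower while MUT stayed within 0.5. In 204, 19.9% against 4.00%, WT stayed within 0.5 while MUT was higher. In 110, 10.8% against 16.6%, both were higher, and in 182, 17.8% against 42.1%, both stayed within 0.5. In 12, 1.17% against 0.0334%, WT was lower and MUT higher. In 4, 0.391% against 4.43%, WT stayed within 0.5 and MUT was lower. The selected MUT excess was thus reached on different courses. These shares follow in part from the selection and nothing is read from their sizes.

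The kinds also differed before day 11. The 243 members that were lower in both genotypes had median levels in WT p2 and pMN of 5.43 on day 5, 6.28 on day 7, 5.82 on day 9 and 4.35 on day 11 on the log2 scale, so they were most open on day 7. In MUT their medians were 5.69, 6.47, 6.43 and 5.40 on these days. The 110 that were higher in both read 4.04, 4.11, 4.45 and 5.46 in WT and 4.26, 4.16, 4.84 and 6.50 in MUT. The 204 in which WT stayed within 0.5 and MUT was higher read 4.12, 4.21, 4.43 and 4.53 in WT and 4.31, 4.26, 4.74 and 5.62 in MUT. Their median day 9 differences between MUT and WT NFIAn over p2 and pMN were 0.54, 0.37 and 0.22. The 182 within 0.5 in both had the largest of the 5 larger kinds, 0.60. Since the kinds are defined with day 9 values, the size of the day 9 difference is partly fixed by the kind.

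**Figure D4:**
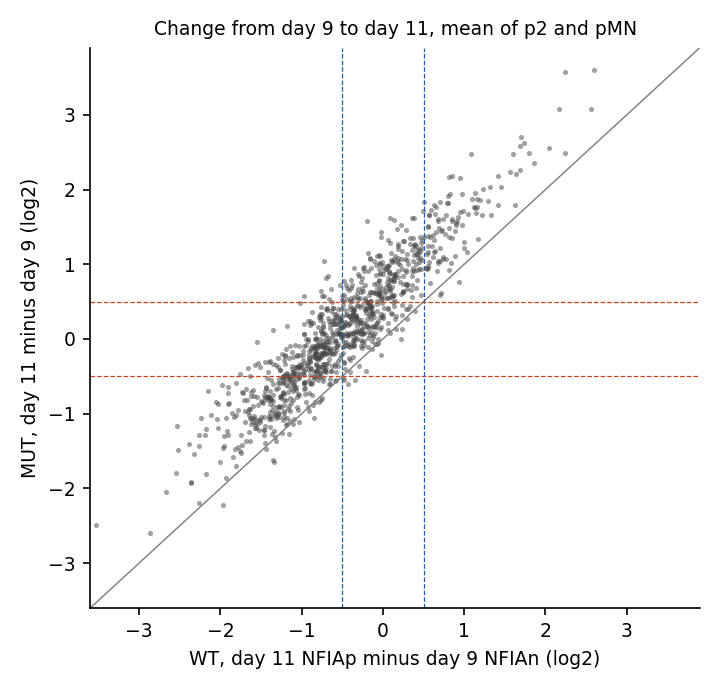
Each point is 1 of the 1023 members, with the log2 difference from day 9 NFIAn to day 11 NFIAp in WT on the x axis and from day 9 to day 11 in MUT on the y axis, both as the mean of p2 and pMN. Dashed lines mark 0.5 and −0.5, the solid line marks equal change, and 523 points lie left of −0.5 on the x axis against 247 below −0.5 on the y axis.

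The members' order over the populations changed with time in WT. Until day 7 they read higher in p2 and pMN than in p0-p1. The median p0-p1 minus ventral difference in WT was −0.20 on day 5, −0.20 on day 7, −0.02 on day 9 in the NFIAn fraction and 0.50 on day 11. In MUT it was −0.24, −0.15, −0.19 and −0.34. Over all intervals these medians lay between −0.03 and 0.05. On day 5 the WT members were highest in pMN in 488 cases, 47.7% against 34.2% of all intervals, and in p0-p1 in 250, 24.4% against 42.6%. On day 11, 733 members, 71.7%, were highest in p0-p1 in WT, against 36.2% of all intervals, and 186, 18.2%, in MUT, against 36.7%. The day 11 order is in part set by the selection, which limits p0-p1 and not p2 or pMN.

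Day 9 gave a test of the populations that the selection did not use. In WT NFIAn, 41 members were called higher in p0-p1 than in the mean of p2 and pMN, against 3.37% of all intervals, and 23 lower, against 0.746%. In MUT, 17 were called higher, against 3.1%, and 84 lower, against 1.52%. The WT count of 23 became 43 without WT D9 pMN NFIAn replicate 1 and 11 without replicate 2. The MUT counts became 9 and 46 without MUT D9 p0-p1 replicate 2. With a pseudocount of 20 the WT counts became 13 and 3 and the MUT counts 5 and 29, and edgeR gave 60 and 40 in WT. Whether the population difference itself differed between the genotypes is the comparison reported above for the ventral populations against p0-p1, in which no interval was called.

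Interval_55307 was the member highest in p0-p1 by this test. On day 9 it read 141, 119.5 and 152 in WT p0-p1, while the p2 libraries read 41.9, 41.7 and 48.0 and those of pMN 13.8 and 15.0. The 3 populations did not overlap. The p0-p1 minus ventral difference was 2.21 ± 0.20 in WT and 2.04 ± 0.23 in MUT (limma adjusted p = 3.06e-13 and 1.97e-09). It was higher in MUT on day 5 already, by 0.97 ± 0.17 over p2 and pMN (limma adjusted p = 0.000407), just under the log2 limit. Interval_146045 had the next largest difference, 1.92 ± 0.18 in WT (limma adjusted p = 3.1e-12). Among those lower in p0-p1, Interval_140731 read 47.0, 25.4 and 42.5 in WT p0-p1 on day 9 and 142, 152 and 183 in p2, and its difference was −1.65 ± 0.24 in WT and −2.33 ± 0.28 in MUT (limma adjusted p = 4.18e-07 and 1.04e-08). Interval_93368 had −1.44 ± 0.20 in WT and −1.78 ± 0.23 in MUT (limma adjusted p = 1.42e-07 and 9.74e-08). The members thus held intervals with opposite population patterns on day 9.

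**Figure D5:**
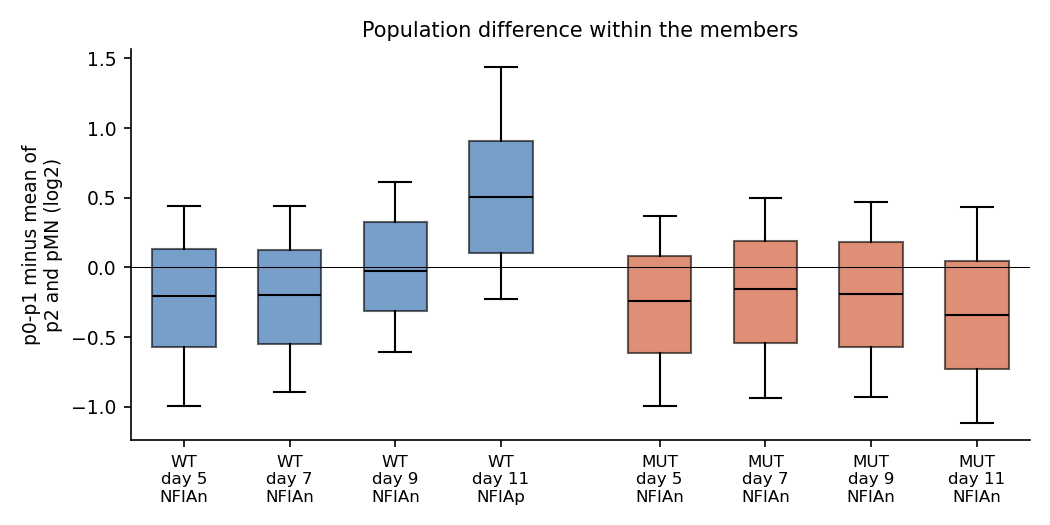
Difference in log2(value + 5) between p0-p1 and the mean of p2 and pMN over the 1023 members, by genotype and day. Boxes span the quartiles with the median as a line and whiskers the 10th to 90th percentiles. The WT median moves from −0.20 on day 5 to 0.50 on day 11, and the MUT median stays below 0. That WT lies above MUT on day 11 follows from the selection.

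Next are the 3 members nearest the medians of the members of at least median mean level. Interval_83571, Interval_67970 and Interval_108827 had means of 56.0, 49.7 and 54.6 normalised reads, against a median of 31.8 over all members. Interval_83571 read 83.8, 69.2 and 58.9 in WT p2 NFIAn on day 9 and 33.0, 34.5 and 32.1 on day 11, and in MUT p2 94.1 and 100.5 on day 9 and 70.4, 69.7 and 59.6 on day 11. Its day 9 difference between the genotypes did not pass the test (p2 0.45 ± 0.29, limma adjusted p = 0.496). Of the pMN libraries of days 5 and 11, those of WT on day 11 were lowest for Interval_67970. Its pMN libraries read 51.2 and 52.3 in WT and 74.8, 63.8 and 95.2 in MUT on day 5, and 28.3, 37.3 and 23.2 in WT and 74.1, 63.7 and 64.4 in MUT on day 11. Interval_108827 was called in p2 on day 9, with 42.8, 28.6 and 29.5 in WT NFIAn and 70.3 and 75.4 in MUT (1.03 ± 0.26, limma adjusted p = 0.0221). In pMN it was higher by 0.94 ± 0.29 (limma adjusted p = 0.0495), under the log2 limit.

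The members were spread over the numbering of the table. Only 15 pairs of members had consecutive numbers, and no run was longer than 2. In 31 full bins of 5000 numbers, between 10 and 55 members fell in a bin, with a median of 33. Earlier results of these data pointed to 3 stretches of consecutive numbers. In order of number, the first was a stretch lower in MUT and the second a stretch higher in MUT. The third was graded over the replicates and not a shift between the genotypes. The stretches held 73 members, 7.14%, against 14.0% of all intervals. In the above order they held 2.35%, 1.47% and 3.32% of the members, against 6.92%, 1.04% and 6.07% of all intervals. Of the intervals named here, Interval_40911 lies in the stretch higher in MUT. Interval_134689 and Interval_140731 lie in the graded stretch, and the excluded Interval_24960 in the stretch lower in MUT. Without these 73 the day 9 medians were 0.364 in p2 and 0.477 in pMN, so the shift of the other 950 members was as large.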

How the data were processed

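The authors deposited 1 table of signal values, read counts per interval divided by 1 size factor per library. Dividing by each library's step returned whole reads for 100% of the values within a tolerance of 0.01. For 2 columns this check decides nothing, because their size factors are close to 1: WT D9 pMN NFIAn replicate 2, and replicate 1 of MUT D11 p2. They were used like the rest. The build was mm10 per the submitters' processing notes; aligner, peak caller and counter are not given in the sources used here. Replicate and group came from titles and population labels. The members and lists were chosen with earlier results of these data known.

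Values were analysed as log2(value + 5), which understates changes of low intervals, with limma 3.58.1 in R 4.3.3, as 26 group means with a variance trend and 45 residual degrees of freedom. The filter required 2 libraries with a value of 10 or more. It kept 155734 intervals, among them all 1023 members. Calls needed a Benjamini-Hochberg adjusted p under 0.05 over all tested intervals and an absolute log2 difference of at least 1. Errors are limma standard errors. Counting errors cover counting only.

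Named intervals had a mean at or above the members' median. They were the 6 with the largest smaller-of-p2-and-pMN day 11 difference and the 3 with the largest called day 9 MUT minus WT NFIAn difference. The 3 lowest and 2 highest called by NFIA fraction were also named. So were the 2 extremes each way by time and by population on day 9. The last 3 were nearest the medians of the members at or above that mean. The 4 intervals beside the threshold were named whatever their level. The 6 called in the added test were named after their values were seen.

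The method was tested on simulated counts for MUT against WT NFIAn in pMN on day 9, over 155734 intervals. limma called 20 of 100 changes of 2-fold and 82 of 100 of 3-fold, with 5 false calls. The changed intervals were drawn only from those of at least median mean level, so these rates do not cover members of lower level. A 2-fold change lies on the log2 limit of 1, which itself limits its calls. Alternatives were edgeR 4.0.16 quasi-likelihood and DESeq2 1.42.0 on recovered reads, TMM scaling, pseudocounts of 1 and 20, other filters, scalings and group choices, the replicate block, and leaving out libraries. DESeq2 gave no adjusted p for 342 members in p2 and 342 in pMN for MUT against WT NFIAn on day 9.

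Replicate numbers were taken to pair libraries where at least 3 pairs all had residual correlations over 0.1, with the replicate block as the paired fit. This held for the NFIA fractions of WT p2, with 3 pairs from 0.113 to 0.369, and for MUT populations on day 9, with 6 pairs from 0.218 to 0.344. With 2 libraries in each of these MUT groups, replicates 1 and 2 give the same correlation, so the 6 pairs are not independent. The replicate block gave 12 and 32 calls for the fractions of p2. Figures were drawn with matplotlib 3.10.9.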

Additional observations from a re-analysis of the deposited data

Results flagged for a closer look

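The 6 members in the test of day 9 against day 5 are listed because the MUT minus WT difference over p2 and pMN differed between the days. The difference was larger on day 9 by 1.48 in Interval_43328, 1.46 in Interval_110040, 1.16 in Interval_73873, 1.11 in Interval_45185, 1.02 in Interval_75480 and 1.01 in Interval_106770, on the log2 scale, with limma adjusted p of 0.00191, 0.00547, 0.0212, 0.0372, 0.00396 and 0.012. In Interval_43328, WT p2 read 13.9 and 5.43 on day 5 and 53.1, 48.3 and 58.9 on day 9, and MUT p2 read 4.30, 3.41 and 5.47 and then 115 and 114. In Interval_110040 the day 5 libraries of p2 and pMN read 0 to 8.68 in both genotypes, with 0 in 1 MUT library of p2 and 1 of pMN. The number of calls ranged from 2 to 25 when single libraries were left out, and the cause of these differences was not tested.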

How the results depend on the processing

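The members' median lay above that of all intervals, in each alternative run, for MUT against WT on days 5, 7 and 9 and for the changes from day 5 to day 9, and below it for p0-p1 against p2 and pMN in MUT. For WT NFIAp against NFIAn in p2 it lay above in 19 of 20 alternatives, and for p0-p1 against p2 and pMN in WT in 7 of 22. The size depended on the pseudocount. With a pseudocount of 1, the change from day 5 to day 9 had a median of 0.395 in WT and 0.654 in MUT. With 20 it was 0.18 and 0.346, and MUT minus WT on day 9 was 0.249 in p2 and 0.322 in pMN against NFIAn and 0.19 and 0.248 against NFIAp. edgeR gave 0.414 and DESeq2 0.415 for the change in WT, and 0.679 and 0.684 in MUT. Quantile normalization gave 0.248 and 0.351 against NFIAn, 0.203 in p2 against NFIAp, and −0.001 for NFIAp minus NFIAn in pMN, the 1 reversal of that median. With a mean of at least 30, MUT minus WT NFIAp was 0.391 in p2 and 0.464 in pMN. Leaving out 1 library moved the NFIAp minus NFIAn median of p2 between 0.01 and 0.143.

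Membership also depended on the settings: 2375 intervals met the rule with a pseudocount of 1, 240 with 20, 1779 with equal totals, 3538 with a threshold of 0.6 and 247 with 1.0, of which 824, 163, 698, 1023 and 247 were members. Without single libraries it was 886 to 1324. On day 9 against NFIAn, members called higher in p2 numbered 2 with a pseudocount of 20, 3 with quantile normalization, 26 by edgeR and 27 by DESeq2. In pMN they numbered 14, 26, 63 and 59, and 13 with only the groups compared. In p0-p1 the 1 call became 5 with only the groups compared. A pseudocount of 20 called 110 members higher and 67 lower from day 5 to day 9 in WT, 196 and 53 in MUT, none on day 5 between the genotypes and 1 for the added comparison of the days. The 3 members lower in MUT than in WT NFIAp in p2 became 0 with it and with only the groups compared. edgeR gave 320 for the higher members in WT and 421 in MUT, and a pseudocount of 1 gave 9 on day 5. The day 5 median between the genotypes was 0.084 with quantile normalization and 0.094 with a pseudocount of 20, and the day 7 median 0.078 with a pseudocount of 20. The p0-p1 minus p2 and pMN median in WT ranged from −0.034 to 0.032 when 1 library was left out. The replicate block changed no call count by over 1.5 times where numbers paired the libraries. In pMN it called 9 members higher in NFIAp than NFIAn when fitted within genotype and day, where numbers did not pair. Libraries had at least 20034731 reads, and depth limits the members of low level most.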
